A study of Mus musculus with 7 samples.

Results

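The proximal tubule genes examined here are Hnf4a, Lrp2, Cubn, Fbp1, Slc39a5, Slc34a1, Spp2 and Pdzk1. They are 8 of the 22364 genes with a usable value in every library. They were chosen by name, with no threshold on a measured value, but with earlier results of these data known. The samples were cultured fetal kidneys of C57BL/6 mice, read as 7 RNA sequencing libraries. Beta-catenin was activated in all 7, 3 of them were E2-2 deleted and 4 were E2-2 wildtype, so no library shows a kidney with normal beta-catenin. Kidneys were taken at 10.5 days post coitum, the day on which the mothers received tamoxifen (2 mg per 40 g of body weight), and were cultured for 3 to 4 days. The labels used here name no Cre driver and do not say which cells recombined, which libraries were cultured for 3 and which for 4 days, or whether each library came from its own animal. P-values therefore measure the spread between these libraries, which may be technical.

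The proximal tubule is the first segment of the nephron after the glomerulus. It takes filtered protein, phosphate, glucose and amino acids back from the urine, and it makes glucose. Hnf4a, a nuclear receptor of tubule, liver and gut epithelium, is a master regulator of its mature genes. Lrp2 (megalin) and Cubn (cubilin) are the endocytic receptors of its brush border, Slc34a1 is its main phosphate importer, and Pdzk1 is a scaffold with PDZ domains that binds the tails of brush border transporters. Slc39a5 imports zinc, Fbp1 is a gluconeogenic phosphatase, and Spp2 encodes a secreted phosphoprotein.

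The levels of several of these genes moved together with those of Hnf4a across libraries, and their promoter sequences were searched for CAAAGTCCA, a motif bound by HNF4 proteins, on both strands. RefSeq promoters of build GRCm38.p6, from 250 bases before to 50 after a start, were at hand for all 8 genes, 11 promoters in all. The motif was found in 1 of the 11, the upstream promoter of Pdzk1, and in 0.475% of all 32851 promoters in the table. The stretch of 70 bases that holds it lies at chr3:96830035-96830104 on the plus strand. It is written 5′ to 3′ with the match, which begins 14 bases after the start, in capitals. A match is a description of the letters and not evidence of binding.
Pdzk1, upstream promoter: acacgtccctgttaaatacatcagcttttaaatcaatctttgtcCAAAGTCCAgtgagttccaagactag

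Levels are FPKM, which count fragments relative to transcript length and to library size and may be compared between genes as well as between libraries. Means are given ± SD over the libraries of a genotype, with n = 3 deleted and n = 4 wildtype. The tables hold no counts. A number of fragments was inferred from the width of the deposited interval of each FPKM, and the inferred depth was 14.6 to 26.6 M fragments per library. E2-2 wildtype replicate 2 was the shallowest. File names of 4 libraries begin with BI (deleted replicates 1 and 2, wildtype replicates 1 and 2) and those of 3 with BM (deleted replicate 3, wildtype replicates 3 and 4); the labels do not explain these prefixes. Tcf4, the gene of E2-2, was at 33.5, 41.7 and 42.0 FPKM in deleted replicates 1 to 3 and at 48.8, 58.1, 28.7 and 39.2 in wildtype replicates 1 to 4. These groups overlapped, and a whole-gene FPKM does not show the loss of a few exons.

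All 8 genes were expressed at low levels and spread widely between libraries of 1 genotype. In whole kidneys, fewer tubule cells and less RNA per cell cannot be told apart. In order of their mean over 7 libraries they were Pdzk1 (9.63 ± 6.02 FPKM), Lrp2 (3.42 ± 2.42), Hnf4a (3.04 ± 2.96), Slc39a5 (2.24 ± 1.93), Slc34a1 (1.18 ± 1.33), Spp2 (0.955 ± 0.827), Fbp1 (0.865 ± 0.726) and Cubn (0.387 ± 0.239), all SD, n = 7. Pdzk1 was above Lrp2, Hnf4a above Slc39a5, and Slc39a5 above Slc34a1 in 7 of 7 libraries. The order of Lrp2 and Hnf4a held in 5 of 7 libraries, that of Slc34a1 and Spp2 and of Spp2 and Fbp1 in 3 each, and that of Fbp1 and Cubn in 6. A mean of at least 1 FPKM, the minimum for the genome-wide test, was reached by 5 of the 8. Spp2, at 0.955, was left out just under that minimum. Slc34a1, at 1.18, lay just over it, and only through its peak in wildtype replicate 2.

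**Figure D1:**
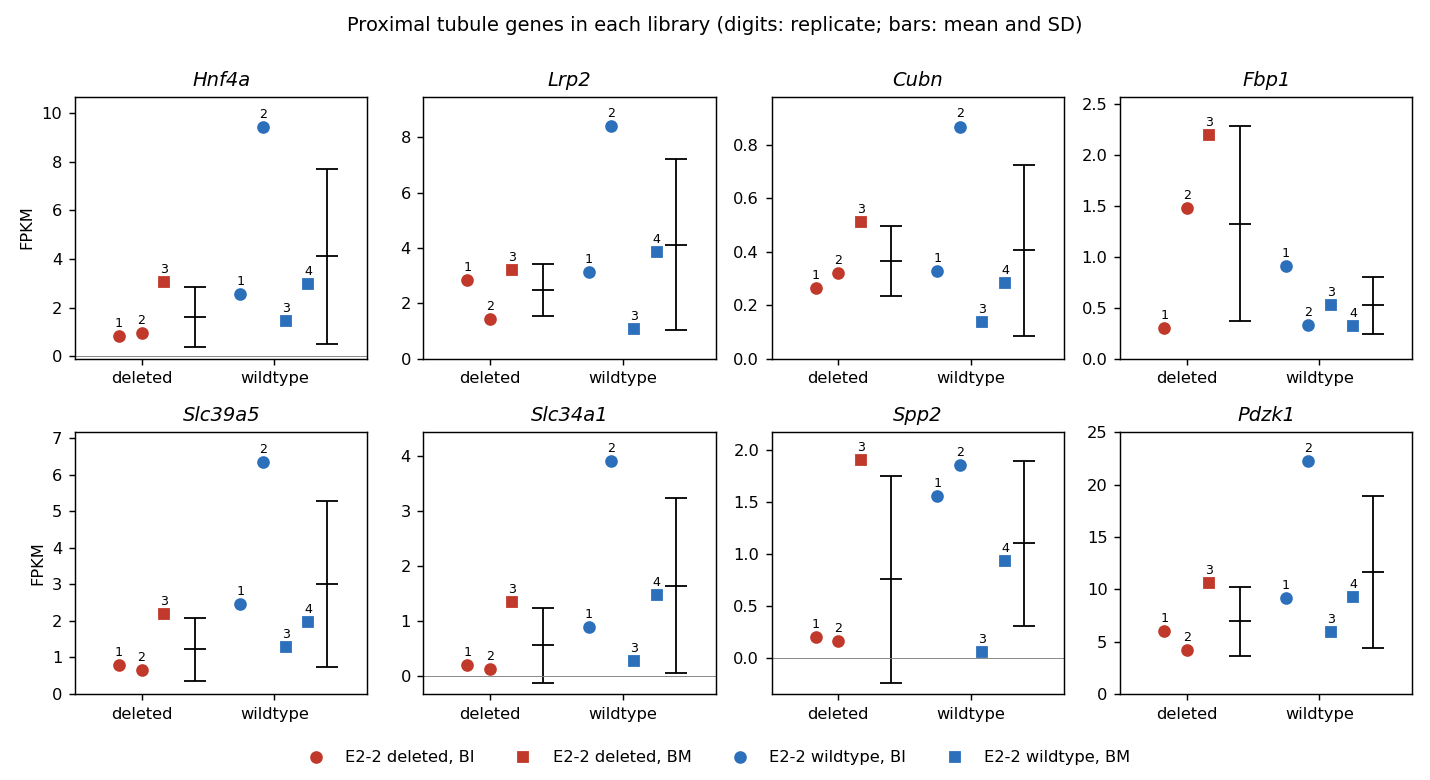
FPKM of the 8 genes in each library, with deleted libraries in red and wildtype libraries in blue; circles are BI files, squares BM files, digits give the replicate, and bars beside the points show mean and SD. Wildtype replicate 2 is the highest point for 6 of the 8 genes, and the genotypes overlap in all 8.

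Hnf4a transcripts ranged from 0.827 to 9.42 FPKM. Hnf4a (chromosome 2, 163372924 to 163398643 in the deposited tables, whose build is not given in the sources used here) was at 0.827, 0.959 and 3.04 FPKM in deleted replicates 1 to 3. It was at 2.55, 9.42, 1.47 and 2.98 FPKM in wildtype replicates 1 to 4. Deleted replicates 1 and 2 were below every wildtype library, whereas deleted replicate 3 was second only to wildtype replicate 2. The means were 1.61 ± 1.24 (SD, n = 3) and 4.11 ± 3.60 (SD, n = 4). On the log2(FPKM + 1) scale used for all tests, which understates changes near 1 FPKM, the difference (deleted minus wildtype) was -0.84 (SE 0.50, 95% interval -2.01 to 0.33; exact permutation p = 0.200, limma adjusted p = 0.795). The interval includes 0. Within BI the difference was -1.69, within BM it was 0.37, and it was -0.42 without wildtype replicate 2.

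The spread of Hnf4a exceeded what its own measurement error allows. The value in deleted replicate 1 rested on 74 inferred fragments and that in wildtype replicate 2 on 575. The deposited intervals did not overlap in 17 of the 21 pairs of libraries. They were also separate in 19 pairs for Lrp2, 17 for Pdzk1, 16 for Slc34a1, 15 for Cubn, 14 for Slc39a5, 12 for Spp2 and 10 for Fbp1. These intervals cover the error of 1 library, not the variation between kidneys.

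Of the endocytic receptors, Lrp2 was the more abundant in every library. Lrp2 (chromosome 2, 69262392 to 69424124) was at 2.83, 1.42 and 3.21 FPKM in the deleted libraries and at 3.13, 8.40, 1.06 and 3.87 in the wildtype libraries. Wildtype replicate 2 was again the highest, but the lowest was also a wildtype library, replicate 3. The means were 2.49 ± 0.948 (SD, n = 3) and 4.11 ± 3.09 (SD, n = 4), with a difference of -0.39 (SE 0.47, 95% interval -1.49 to 0.71; limma adjusted p = 0.821). The difference was -1.03 within BI and 0.41 within BM. It was -0.03 without wildtype replicate 2, -0.14 without deleted replicate 2 and -0.76 without wildtype replicate 3.

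Cubn (chromosome 2, 13197965 to 13413503) was at 0.264, 0.319 and 0.511 FPKM in the deleted libraries and at 0.328, 0.868, 0.137 and 0.284 in the wildtype libraries. Its groups overlapped fully, with means of 0.365 ± 0.130 (SD, n = 3) and 0.404 ± 0.320 (SD, n = 4). The difference was -0.02 (SE 0.18 in a fit with no filter; exact permutation p = 0.914), -0.29 within BI and 0.32 within BM. Lrp2 exceeded Cubn 4.43-fold (deleted replicate 2) to 13.6-fold (wildtype replicate 4), with a median of 9.56.

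Transcripts of Amn (amnionless), the membrane anchor that cubilin needs to reach the cell surface, were lower in each deleted library than in any wildtype library. Amn was at 0.463, 0.150 and 0.468 FPKM against 0.685, 2.94, 0.902 and 0.981. Its mean of 0.942 FPKM kept it out of the main test; the difference was -0.73 (SE 0.32 and limma adjusted p = 0.880 in the fit with no filter; exact permutation p = 0.0571). Groups did not overlap in 4.89% of the 13463 genes tested, with the deleted libraries lower in 2.05% and higher in 2.84%. The other 12 genes of the endocytic list were tested; 8 had a positive and 4 a negative difference, with a median of 0.05 against -0.05 over all genes tested. None passed at an adjusted p of 0.05 or an unadjusted p under 0.05. Lrpap1, the chaperone of megalin, was at 36.8 ± 2.36 against 35.1 ± 2.71 FPKM and Dab2, the adaptor on megalin's tail, at 33.8 ± 8.98 against 28.4 ± 6.96. The endosomal chloride/proton exchanger Clcn5 was at 17.4 ± 1.29 against 17.2 ± 0.995. Lrpap1 and Clcn5 stayed between 32.8 and 39.4 and between 16.4 and 18.8 FPKM over all libraries, a far narrower range than the receptors had.

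Among transporters, Slc34a1 ranged from near the detection limit to 3.91 FPKM. Slc34a1 (chromosome 13, 55501009 to 55516056) was at 0.193, 0.136 and 1.34 FPKM in the deleted libraries and at 0.90, 3.91, 0.278 and 1.48 in the wildtype libraries. The 3 lowest values, in deleted replicates 1 and 2 and wildtype replicate 3, rested on 12, 7 and 21 inferred fragments. The means were 0.558 ± 0.681 (SD, n = 3) and 1.64 ± 1.59 (SD, n = 4), with a difference of -0.67 (SE 0.48, 95% interval -1.77 to 0.44; exact permutation p = 0.257, limma adjusted p = 0.795). It was -1.39 within BI and 0.40 within BM. It was -0.31 without wildtype replicate 2 and -1.0025 without deleted replicate 3. With a pseudocount of 0.1 in place of 1 the difference was -1.42 (limma adjusted p = 0.794). Pfn3, whose entry overlaps that of Slc34a1, was at most at 0.182 FPKM.

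Slc39a5 followed the same order of libraries closely. Slc39a5 (chromosome 10, 127832988 to 127838280) was at 0.799, 0.655 and 2.20 FPKM in the deleted libraries and at 2.46, 6.34, 1.28 and 1.97 in the wildtype libraries. Deleted replicates 1 and 2 lay below all wildtype libraries and deleted replicate 3 among them. The means were 1.22 ± 0.853 (SD, n = 3) and 3.01 ± 2.27 (SD, n = 4). The difference was -0.77 (SE 0.42, 95% interval -1.75 to 0.20; exact permutation p = 0.171; limma adjusted p = 0.795). Within BI it was -1.55 and within BM 0.30. It was -0.43 without wildtype replicate 2.

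None of the 10 tested zinc importers among the other listed Slc39 genes had an r above 0.9 with Hnf4a over the 7 libraries. The highest r among them was 0.73, and only 0.505% of all 13462 genes compared exceeded 0.9. Of 13 genes 10 were tested, with a median difference of 0.01, and none passed at an adjusted p of 0.05 or an unadjusted p under 0.05. Slc39a14, the zinc and iron importer with the smallest p in the family, was at 15.6 ± 6.77 FPKM in deleted and 9.76 ± 1.42 in wildtype libraries, highest in deleted replicate 2 at 23.0. Slc39a1, a widely expressed importer, was at 60.8 to 80.1 FPKM. Slc39a4, the intestinal zinc importer most related in function, was at 0.0754 to 0.705 FPKM.

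Pdzk1 was the most abundant of the 8 genes. Pdzk1 (chromosome 3, 96633988 to 96674849) was at 6.02, 4.17 and 10.6 FPKM in the deleted libraries and at 9.18, 22.3, 5.94 and 9.22 in the wildtype libraries. Deleted replicate 3 exceeded all wildtype libraries but replicate 2. The means were 6.94 ± 3.33 (SD, n = 3) and 11.7 ± 7.23 (SD, n = 4), with a difference of -0.60 (SE 0.43, 95% interval -1.59 to 0.39; exact permutation p = 0.343, limma adjusted p = 0.795). Within BI it was -1.35, within BM 0.47, and it was -0.26 without wildtype replicate 2. The overlapping entry 4930442L01Rik was at most at 0.183 FPKM. Pdzk1 exceeded Slc34a1, the transporter whose tail it binds, 5.69-fold in wildtype replicate 2 and 31.2-fold in deleted replicate 1, so the ratio was smallest where both transcripts were most abundant.

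The other brush border scaffold genes had no common direction. Of 12 genes 8 were tested, 3 with a positive and 5 with a negative difference (median -0.15), and none reached an unadjusted p under 0.05. Slc9a3r1, the related scaffold NHERF1, was at 22.2 ± 4.96 FPKM in deleted and 27.7 ± 3.31 in wildtype libraries, and Pdzk1ip1, a partner of Pdzk1, at 29.0 ± 11.4 against 31.1 ± 15.1. Vil1 (villin), the actin bundler of microvilli, was at 1.15 ± 0.548 against 2.56 ± 2.67 and reached its highest level, 6.45 FPKM, in wildtype replicate 2.

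Fbp1 was the 1 gene of the 8 with a positive difference, and it did not follow the others. Fbp1 (chromosome 13, 62966113 to 62989596) was at 0.297, 1.48 and 2.19 FPKM in the deleted libraries and at 0.909, 0.326, 0.528 and 0.323 in the wildtype libraries. Deleted replicates 2 and 3 were above every wildtype library, while deleted replicate 1 was the lowest of all. The means were 1.32 ± 0.957 (SD, n = 3) and 0.521 ± 0.276 (SD, n = 4), with a difference of 0.53 (SE 0.33 in the fit with no filter; exact permutation p = 0.257), 0.17 within BI and 1.17 within BM. The difference was 0.25 without deleted replicate 3 and 0.90 without deleted replicate 1. Wildtype replicate 2, the highest library for Hnf4a, held only 6 inferred Fbp1 fragments.

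Fbp2, which encodes the muscle form of the same enzyme, was also had a positive difference. Fbp2 averaged 3.23 ± 1.43 FPKM in deleted and 1.12 ± 0.685 in wildtype libraries, which differ by 1.01 (SE 0.34; limma unadjusted p = 0.0194, adjusted p = 0.795). Its groups overlapped, with 1.79 FPKM in deleted replicate 1 and 1.89 in wildtype replicate 2. Of the 8 genes listed around this glycolytic step all were tested, 6 with a positive difference, and the median was 0.03. Pck1, the committing enzyme of gluconeogenesis, was at 0.0957 to 9.44 FPKM and highest in wildtype replicate 4.

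Spp2 was close to the limit of detection in 3 libraries. Spp2 (chromosome 1, 90303594 to 90323013) was at 0.201, 0.162 and 1.91 FPKM in the deleted libraries and at 1.56, 1.86, 0.0576 and 0.930 in the wildtype libraries. The values in deleted replicates 1 and 2 and wildtype replicate 3 rested on 3, 2 and 1 inferred fragments, and their deposited intervals reached 0. In the 4 other libraries Spp2 was at 0.930 FPKM or more. The means were 0.757 ± 0.997 (SD, n = 3) and 1.10 ± 0.797 (SD, n = 4), and the difference was -0.30 (SE 0.49 in the fit with no filter; exact permutation p = 0.686), -1.20 within BI and 1.03 within BM. It was -0.74 without deleted replicate 3 and -0.07 without deleted replicate 2.

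With limma, 0 of the 5 genes tested passed an adjusted p of 0.05, as did 0% of all 13463 genes tested, and 0 of the 5 had an unadjusted p under 0.05, against 4.49% of all genes (3.29% with a positive and 1.2% with a negative difference). In the limma fit with no filter the counts were 0 of 8 at either threshold, against 0.0179% of 22364 genes at an adjusted and 4.4% at an unadjusted p under 0.05. By the exact permutation test 0 of the 8 had a p under 0.05, against 2.99% of the genes tested; the smallest p that 3 against 4 libraries can give is 0.0286. Genotypes overlapped in all 8. The 5 tested differences were all negative with a median of -0.67. Over all genes tested the median was -0.05, and 8174 of 13463 were negative. Slc34a1 reached a mean of 1 FPKM only through wildtype replicate 2, and Fbp1, with a positive difference, was not tested. The count of directions thus depends in part on the filter. Within BI 7 of the 8 genes had a negative difference, and within BM, which holds a single deleted library, all 8 had a positive difference. The share of all genes with such signs was not computed. Most of the 8 varied together across libraries, so these are not 8 separate results. A model with a genotype by prefix term was fitted after these values were seen. In it the BM difference exceeded the BI difference by 1.45 (Lrp2) to 2.05 (Hnf4a) among the 5 genes tested. The deleted arm within BM is 1 library, which is assumed to vary like the others, so only the sizes are given and no conclusion is drawn.

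**Figure D2:**
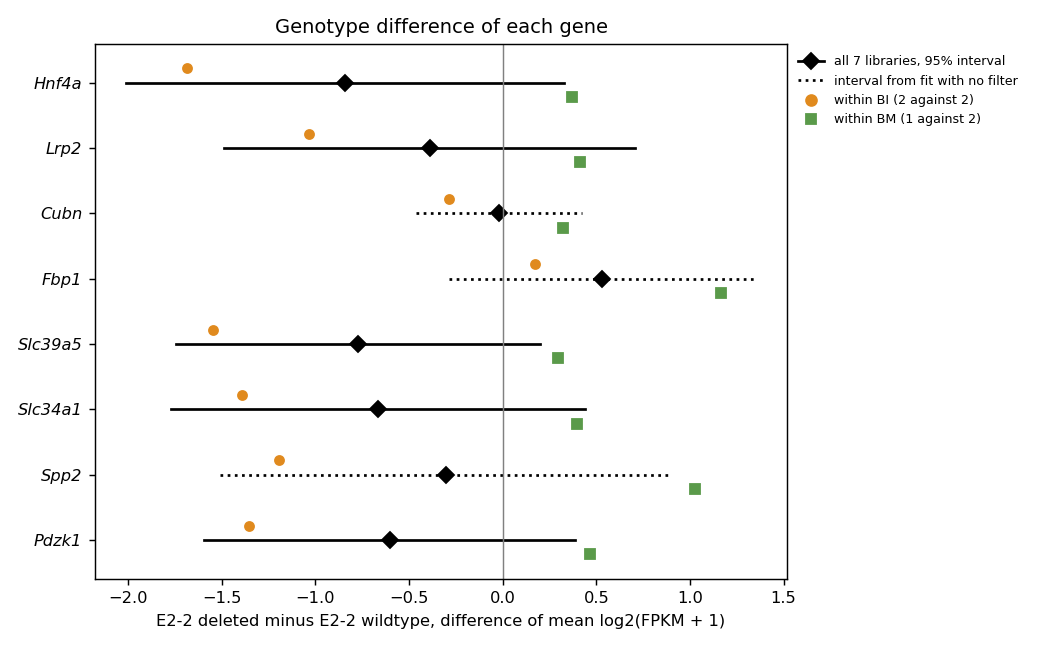
Difference of mean log2(FPKM + 1), E2-2 deleted minus E2-2 wildtype, for each gene: diamonds and bars give the value over all libraries with its 95% interval (dotted where it comes from the fit with no filter), circles the value within BI and squares within BM. Every 95% interval includes 0, and all 8 squares lie right of 0 while 7 of the 8 circles lie left of it. Most of the 8 genes varied together, so these are not 8 separate results.

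Across libraries, most of these genes varied together with Hnf4a. Over the 7 libraries the Pearson r with Hnf4a was 0.99 for Slc34a1, 0.98 for Slc39a5, 0.97 for Pdzk1, 0.86 for Lrp2, 0.85 for Cubn, 0.81 for Spp2 and -0.17 for Fbp1. Spearman's rho was 0.93, 0.86, 0.89, 0.82, 0.75, 0.79 and 0.21 in the same order. Adjusted over the 7 relations, the exact permutation p of r was 0.00556 for Slc34a1, 0.00764 for Slc39a5, 0.00787 for Pdzk1, 0.0274 for Lrp2, 0.0303 for Spp2, 0.0331 for Cubn and 0.711 for Fbp1. For rho the adjusted exact permutation p was 0.0431 for Slc34a1 and Pdzk1 and 0.0556 to 0.662 for the others. These libraries hold both genotypes and both prefixes, and each of those groups has too few libraries for an r of its own.

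Without the 2 libraries farthest from the median of Hnf4a, wildtype replicate 2 and deleted replicate 1, r was 0.98 for Slc34a1, 0.94 for Slc39a5, 0.99 for Pdzk1, 0.91 for Lrp2, 0.88 for Spp2, 0.49 for Cubn and -0.05 for Fbp1. The relation of Cubn thus rested on those libraries. With only wildtype replicate 2 left out, r was 0.62 for Lrp2 and 0.48 for Cubn. The level of Slc39a5 relative to Hnf4a was between 0.662 and 0.966 in all libraries, a 1.46-fold range. The ratio of Fbp1 to Hnf4a ran from 0.0346 in wildtype replicate 2 to 1.54 in deleted replicate 2.

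**Figure D3:**
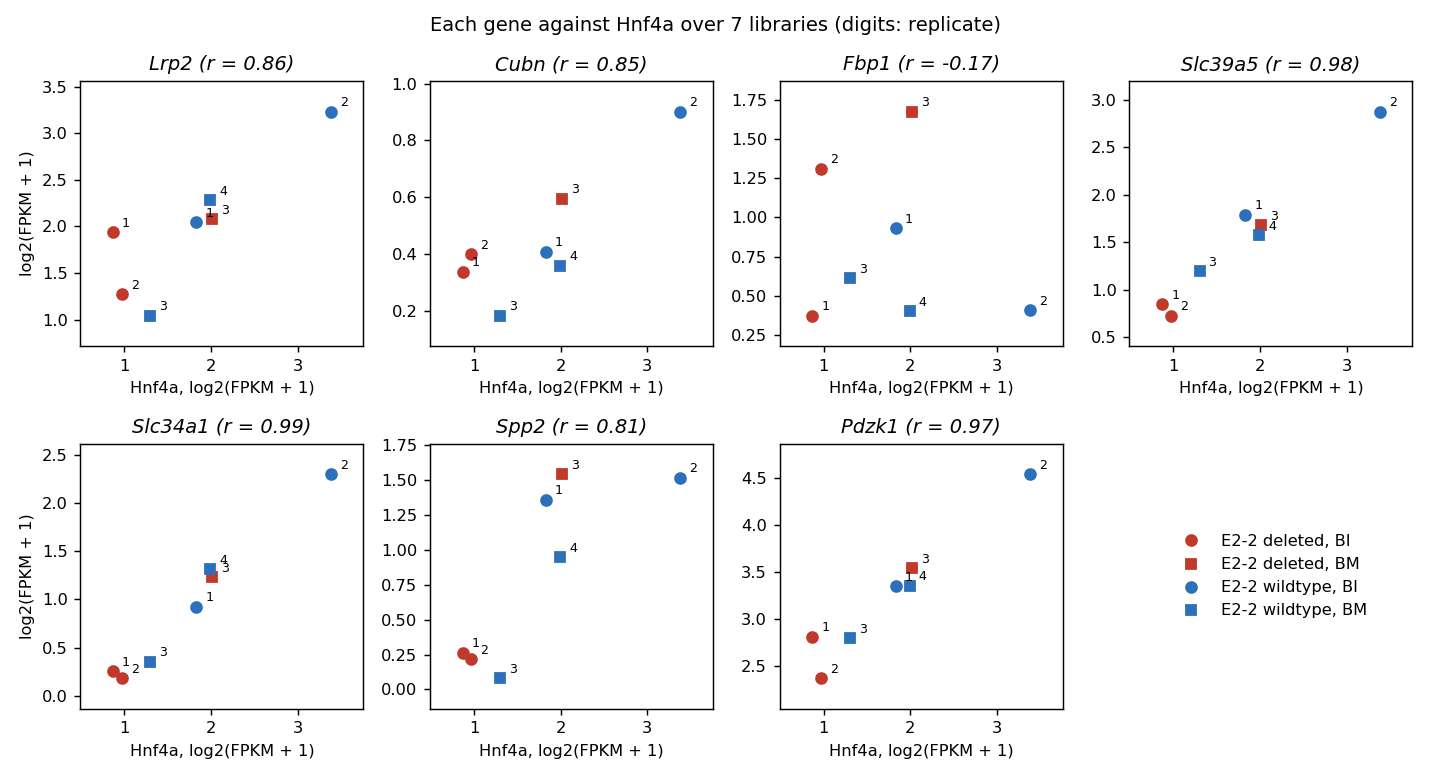
Each of the other 7 genes (vertical axis) against Hnf4a (horizontal axis), both as log2(FPKM + 1), with 1 point per library, colours and shapes for genotype and file prefix, digits for the replicate and Pearson r above each plot. Slc34a1, Slc39a5 and Pdzk1 lie close to a line that includes deleted as well as wildtype libraries, and Fbp1 does not.

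The 6 named genes with the highest r with Hnf4a outside the 8 were Tmem135, Hao2, Hsd3b4, Qprt, Clrn3 and Tmem174, of which Hao2 is on the list of proximal enzymes. Over the 7 libraries, Pearson r was 0.99 for Tmem135 and Hao2 and 0.98 for Hsd3b4, Qprt, Clrn3 and Tmem174; Slc34a1, Slc39a5 and Pdzk1 ranked 3, 5 and 12 among all 13462 genes compared with Hnf4a, and Lrp2 ranked 120. Hao2 is a peroxisomal oxidase, Qprt an enzyme of NAD synthesis and Hsd3b4 a steroid dehydrogenase. Without wildtype replicate 2 the mean of Hao2 was 0.734 FPKM, that of Clrn3 0.849 and that of Tmem174 0.809, so these reached 1 FPKM only through that library. Hao2 was at 0.242 FPKM in deleted replicate 2 and 4.25 in wildtype replicate 2, and Hsd3b4 at 1.01 and 12.5. Hsd3b4 has close paralogs, between which reads may be split. Tmem135 stayed within a narrow range of 9.75 to 13.8 FPKM. These genes were ranked by r, so no p is given for them.

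The relation with Hnf4a was mixed among the other listed proximal tubule genes. A filter on the mean of all 7 libraries lets in genes through a peak in wildtype replicate 2, so list genes were read here only where their mean in the other 6 libraries was at least 1 FPKM, a choice made after the data were seen. Of 32 proximal enzymes 17 were kept, and 8 of them were highest in wildtype replicate 2, as was 1 of the 6 transporters kept of 27. Of all 13442 genes kept, 11.5% were highest there. The median r with Hnf4a over the 7 libraries was 0.43 for the enzymes and 0.11 for the transporters, and 0.11 over all genes. Without wildtype replicate 2 it was 0.60 for the enzymes, 0.14 for the transporters and 0.27 over all genes.

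The counts of differences here use the filter on the mean of all 7 libraries, by which 19 enzymes and 10 transporters were tested. Some, such as Hao2, passed it only through the peak in wildtype replicate 2. Such genes lean to a negative difference by that choice, so the directions are not read as a result. Of the enzymes, 3 had a positive and 16 a negative difference (median -0.38), and of the transporters 3 and 7 (median -0.34). Over all 13463 genes tested, 5289 were positive and 8174 negative. Of the 29 enzymes and transporters, 0 passed a limma adjusted p of 0.05. Slc7a8, an exchanger of neutral amino acids, was the 1 of the 29 with an unadjusted p under 0.05, a threshold that 4.49% of all genes tested passed. Slc7a8 was at 31.7, 152 and 44.1 FPKM in the deleted libraries and at 15.8, 17.7, 12.9 and 13.7 in the wildtype libraries. All 3 deleted libraries were higher, by 1.94 (SE 0.47; limma unadjusted p = 0.00358, adjusted p = 0.795; 2.00 within BI, 1.66 within BM), and deleted replicate 2 was by far the highest. The water channel gene Aqp1 was at 14.2, 86.4 and 21.5 FPKM against 10.1, 11.1, 15.2 and 19.8, again highest in deleted replicate 2. Their r with Hnf4a was -0.42 for Slc7a8 and -0.46 for Aqp1, and both are made by other cell types as well.

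Several transporters of the mature proximal tubule were at or near 0. Slc5a2, the glucose transporter of the early segment, did not exceed 0.133 FPKM and was listed at 7.46e-10 FPKM in deleted replicate 2 and 2.52e-09 in wildtype replicate 2. The proton exchanger Slc9a3 did not exceed 0.148 FPKM, and the phosphate transporter Slc34a3 did not exceed 0.0475. Of the 27 transporters 17, and of the 32 enzymes 13, did not reach a mean of 1 FPKM. Of all 22364 genes 13463 reached it, a share like that of the enzymes, 19 of 32. The 10 transporters that did reach it include Slc4a4, at a mean of 5.90 FPKM, and Slco4c1, at 1.93. Slc5a2, Slc9a3 and Slc34a3 were named after their low values were seen, so they do not stand for the list. Levels within the 27 transporters thus ran from hardly detected to well above 1 FPKM.

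Among the listed tubule transcription factors, Hnf4g, the paralog of Hnf4a, was at 0.0191 to 0.633 FPKM. Osr2 was the 1 of the 5 tested factors with an unadjusted p under 0.05, against 4.49% of all genes tested, at 22.4 against 10.4 FPKM on average (difference 0.94, SE 0.36; limma adjusted p = 0.795). It was highest in deleted replicate 2, at 37.3 FPKM.

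Some genes of other nephron segments were also highest in wildtype replicate 2. Slc12a1, the salt transporter of the loop of Henle, was at 14.99 FPKM there and at 0.223 to 1.32 elsewhere, and Umod (uromodulin) at 4.89 against 0.123 to 1.88. Slc12a1 and Umod reached a mean of 1 FPKM only through that library, so neither is in the counts that follow. Of the genes with a mean of at least 1 FPKM in the other 6 libraries, 2 of 3 loop and distal markers and 4 of 8 podocyte markers were highest in that library, against 11.5% of all genes. Their median r with Hnf4a was 0.68 and 0.26, against 0.11 over all genes. It was 0.55 and -0.08 without wildtype replicate 2, against 0.27 over all genes.

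None of the tested nephron progenitor and ureteric genes had an r above 0.9 with Hnf4a. Only 0.505% of all 13462 genes compared did, a share at which lists of this length would mostly hold none. The summed level of the 8 progenitor genes was 116 to 326 FPKM in the deleted and 174 to 358 FPKM in the wildtype libraries, and wildtype replicate 2 was the lowest of its genotype. Six2, the progenitor factor, was at 62.8, 2.69 and 33.5 FPKM in the deleted libraries and at 53.4, 29.0, 54.6 and 74.8 in the wildtype libraries. Deleted replicate 2, lowest for Pdzk1, Slc39a5 and Slc34a1, was thus also lowest for Six2. Of the 10 early nephron genes, 4 had a positive and 6 a negative difference. Groups did not overlap for 2 of them, Wnt4 and Fgf8, against 4.89% of all genes tested, and limma adjusted p was 0.795 for both. At an unadjusted limma p under 0.05 were 2 genes with a positive difference, Wnt4 and Bmp2, and 1 with a negative difference, Fgf8. That threshold was passed by 4.49% of all genes tested. Bmp2 averaged 15.5 FPKM in deleted and 7.75 in wildtype libraries, and its groups overlapped (limma adjusted p = 0.795). Wnt4, the inducer of nephron formation, was at 41.1, 99.98 and 38.955 FPKM in deleted replicates, so that its mean of 60.0 was raised by replicate 2, and at up to 36.9 FPKM in wildtype libraries. Fgf8, needed for nephron precursors to survive, averaged 1.74 FPKM in deleted and 3.88 in wildtype libraries. The median r with Hnf4a was 0.01 for the progenitor and 0.16 for the ureteric list, and 0.42 and 0.15 without wildtype replicate 2. The part of nephron cell content in the levels of the 8 genes was not tested.

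**Figure D4:**
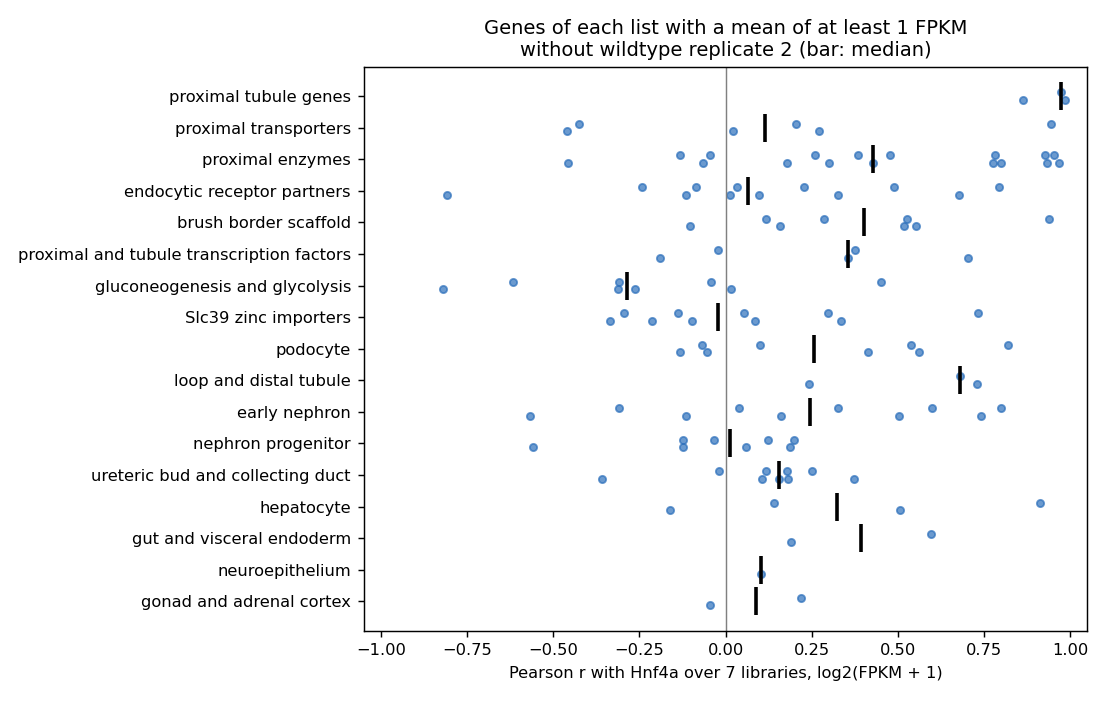
Pearson r with Hnf4a over the 7 libraries (horizontal axis) for each gene of each list (rows) with a mean of at least 1 FPKM in the libraries other than wildtype replicate 2, with 1 point per gene and a bar at the median. Medians are 0.43 for proximal enzymes, 0.11 for proximal transporters and 0.01 for nephron progenitors, and points spread widely within most lists.

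Several of the 8 genes are also expressed in liver, gut, yolk sac and neural epithelium, so markers of these tissues were read in the same libraries. Of 12 hepatocyte genes 4 were tested, and the summed level was 12.1 to 26.6 FPKM in the deleted and 14.6 to 31.7 FPKM in the wildtype libraries, highest in wildtype replicate 2. Afp, a protein of fetal liver and yolk sac, was at 12.8 FPKM in wildtype replicate 2 and at 0.527 to 2.41 FPKM in the others. Alb (albumin), the defining hepatocyte transcript, was listed at 0 in wildtype replicate 2 and did not exceed 0.124 FPKM in any library. Ttr, Fgb and Serpina1a were, like Afp, highest in wildtype replicate 2, at 1.89, 1.76 and 1.47 FPKM. The remaining hepatocyte genes were highest in other libraries. A part of liver or yolk sac cells in the levels of the 8 genes was not tested. Of the 9 gut and visceral endoderm genes with a value 2 were tested, 3 were listed at 0 in all libraries, and the summed level was 5.41 to 8.32 FPKM in the deleted and 2.24 to 11.3 FPKM in the wildtype libraries. Of 8 neuroepithelial genes 1 was tested, Fabp7, and Sox2 did not exceed 0.300 FPKM. The sum was 6.52 to 29.1 FPKM in the deleted and 4.07 to 23.1 FPKM in the wildtype libraries. Most of the highest sums was Fabp7, at 27.7 FPKM in deleted replicate 3 and 22.3 in wildtype replicate 1. Its lowest level was 3.73 FPKM, in wildtype replicate 4. Of 8 gonad and adrenal genes 2 were tested, with sums of 10.6 to 15.2 FPKM against 8.57 to 13.5 FPKM.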

How the data were processed

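Each library has 1 table deposited by the authors, which lists for every gene an FPKM and the bounds of its interval, per the file headers. The submitters' processing notes name CASAVA 1.8.2, TopHat2 2.0.4 and Cufflinks 2.0.2 without their roles, and name no build or annotation. Each table had 23699 entries, identical in locus; 25 symbols turned into dates in 1 table were restored from another table. Rows of one symbol were summed, and small RNAs were dropped, as was any gene whose deposited status was not OK throughout. Coordinates are counted from 1.

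Inferred fragments are (2 × FPKM / (upper bound − FPKM)) squared, an inference from the values; 78.9% to 80.1% of those under 300, for genes with 1 start, lay within 0.05 of a whole number. Genes with a mean of at least 1 FPKM (13463) were compared as log2(FPKM + 1) with limma 3.58.1 in R 4.3.3 (mean-variance trend, 2-sided, Benjamini-Hochberg over all genes tested, threshold 0.05). The fit with no filter covered 22364 genes. Exact 2-sided permutation tests used the 35 splits of 7 libraries into 3 and 4 and, for correlations, all 5040 pairings (Python 3.11.15). The limma script was tested on simulated data. Replicates are numbered by order of deposit, which pairs none.

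The genes and lists were chosen with earlier results of these data known, so counts over lists are descriptions and no list was tested. Named genes are the 8, Tcf4, the 4 of smallest p in each list, all genes of the endocytic, scaffold and factor lists where useful, and the 6 genes of highest r with Hnf4a. Slc5a2, Slc9a3, Slc34a3, Slc39a4, Pck1, Alb, Ttr, Fgb, Serpina1a and Sox2, and the overlapping entries Pfn3 and 4930442L01Rik, fall outside that rule. They were named after their values were seen. Alternatives were other pseudocounts, filters and scalings, the file prefix as a term, a weight per library, no trend, 1 row per symbol, a list filter without wildtype replicate 2, and leaving out each library. Some genes that this rule names, and motifs of their products, are not reported here.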

Additional observations from a re-analysis of the deposited data

How the results depend on the processing

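No difference of the 8 genes reached a limma adjusted p under 0.05 in any alternative run that tested it. The lowest limma adjusted p was 0.583, for Slc39a5 without E2-2 deleted replicate 1. Cubn and Fbp1 were tested only in the fit with no filter. Spp2 was tested only there and without deleted replicate 1, deleted replicate 2 or wildtype replicate 3. The filter at 5 FPKM left only Pdzk1. Among those of the 8 genes that a run tested, the count with an unadjusted limma p under 0.05 was 0, but 1 with quantile normalization (Slc39a5). Leaving out 1 library gave 0 to 1, with Slc39a5 the gene without deleted replicate 3 or wildtype replicate 3. The difference of Cubn turned from -0.02 to 0.043 with a pseudocount of 0.1, to 0.046 with a weight per library, and ranged from -0.11 to 0.13 over the libraries left out. Over the 17 alternatives other than the prefix splits, no other gene changed sign. Within BM, differences were 0.37 for Hnf4a, 0.41 for Lrp2, 0.32 for Cubn, 0.30 for Slc39a5, 0.40 for Slc34a1, 1.03 for Spp2 and 0.47 for Pdzk1, each negative over all libraries. The correlation of Hnf4a with Cubn was 0.77 with a pseudocount of 0.1 (exact permutation adjusted p = 0.0563). The causes were not tested. Leaving out 1 library gave -1.21 to -0.42 for Hnf4a, -0.76 to -0.03 for Lrp2, -0.92 to -0.26 for Pdzk1, -1.0025 to -0.31 for Slc34a1, -1.07 to -0.43 for Slc39a5, -0.74 to -0.07 for Spp2 and 0.25 to 0.90 for Fbp1. With a weight per library the differences were -0.31 for Hnf4a, -0.20 for Lrp2, -0.38 for Slc39a5, -0.18 for Slc34a1, -0.14 for Pdzk1, -0.04 for Spp2 and 0.65 for Fbp1, all but that of Fbp1 closer to 0 than without weights, Cubn apart. Spp2, Fbp1 and Slc34a1 rest on under 25 inferred fragments in several libraries, so their low values are imprecise. No paired analysis was possible because replicate numbers were given in order of deposit.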
